A study of Mus musculus with 2 samples.

Results

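The Peg10 and Sgce locus on mouse chromosome 6 was examined for H3K9me3, trimethylation of lysine 9 of histone H3. Its members were 4 listed genes, Casd1, Sgce, Peg10 and Ppp1r9a, out of 21887 protein-coding genes of the RefSeq annotation and 22367 of GENCODE M1. The rule lists the genes by name and uses no measured value, but the list was drawn up with earlier results of these data known. In mm10 the gene bodies with 50 kb on each side were taken from RefSeq, and in mm9 the promoters, 1 kb on each side of any transcript start, were taken from GENCODE M1. On mm10 chromosome 6 the order is Casd1 at chr6:4600911-4643355, Sgce at chr6:4674350-4747204, Peg10 at chr6:4747306-4760517 and Ppp1r9a at chr6:4902872-5165661. Sgce lies on the minus strand and the other 3 on the plus strand, per GENCODE M1.

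The study mapped H3K9me3 by ChIP-seq in E14TG2a.4, a male mouse embryonic stem cell line of strain 129/Ola, for which the labels give an embryonic age of 3.5 days. There was 1 group, with 2 biological replicates from separate biosamples of this single line and its single donor, and no second genotype, treatment or time. No control library was analysed here, and because the files were peak lists the read depth behind every value is unknown. With 2 replicates of 1 group no test between conditions was possible, so all comparisons below are descriptions. The lists do not separate the maternal from the paternal allele.

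Imprinted genes are read from the copy of one parent, a choice set by DNA methylation placed in the germ line at imprinting control regions. On the methylated copy, zinc finger proteins such as Zfp57 bind a short methylated motif and bring KAP1 and SETDB1, which writes H3K9me3, so that the mark is known at these regions in embryonic stem cells. At this locus the control region lies at the start that Sgce and Peg10 share and is methylated on the maternal copy. Peg10, a gene derived from a retrotransposon and needed for the placenta, and Sgce, which encodes epsilon-sarcoglycan of the cell membrane, are expressed from the paternal copy. Ppp1r9a encodes neurabin, an actin-binding protein that anchors protein phosphatase, and is maternally expressed in the placenta. Casd1 encodes an enzyme that adds acetyl groups to sialic acids.

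The letters of the motif known for Zfp57, TGCCGC, were searched on both strands, because the strongest promoter signal of the locus fell on the presumed control region. The mm9 stretch covered in both replicates over the Sgce and Peg10 starts, chr6:4695401-4700000, held 3 copies, and a further stretch inside Peg10, chr6:4704401-4707000, held 1. The 3 copies that lie in the Peg10 intron or coding sequence are shown with 12 bases on each side, 5′ to 3′ on the motif's strand, with the motif in capitals.
Peg10 intron, 618 bp past the start (mm9 chr6:4697912-4697941, + strand): tgcactcttaagTGCCGCgctacgaacgga
Peg10 intron, 1187 bp past the start (mm9 chr6:4698481-4698510, − strand): gtcttatgcctgTGCCGCagtttgtagcgc
Peg10 coding sequence, 7463 bp past the start (mm9 chr6:4704757-4704786, + strand): gctgatcggccgTGCCGCccgctgggctac
The remaining copy of the start region lay 77 bp before the Peg10 start, between the starts of both genes. Of 42197 mm9 stretches of at least 1 kb covered in both replicates, 25.2% held the motif at least once. In copies per kb, the stretch over the starts (0.652) lay above 96.1% of them and the one inside Peg10 (0.385) above 89.5%. Those stretches were not matched for width or for CpG density, and the motif itself contains a CpG. A match describes letters only and is no evidence of binding.

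The promoter table of RefSeq (build GRCm38.p6, 250 bases before to 50 after each start) matched 2 of the 4 members, Casd1 and Ppp1r9a. Sgce and Peg10 had no entry. Of the 2 entries of each gene the one richer in CpG is printed. Both printed promoters carried no peak in any of the 4 mm10 lists, so they serve as the unmarked counterpart within the locus. They are given on the + strand with each CpG in capitals.
Casd1 promoter (chr6:4600661-4600960): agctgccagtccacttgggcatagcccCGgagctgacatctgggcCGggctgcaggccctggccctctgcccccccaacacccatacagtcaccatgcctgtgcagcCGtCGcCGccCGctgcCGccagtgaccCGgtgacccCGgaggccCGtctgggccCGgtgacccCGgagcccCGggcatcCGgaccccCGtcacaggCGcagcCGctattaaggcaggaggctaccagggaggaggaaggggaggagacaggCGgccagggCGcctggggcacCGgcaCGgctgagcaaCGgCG
Ppp1r9a promoter (chr6:4903061-4903360): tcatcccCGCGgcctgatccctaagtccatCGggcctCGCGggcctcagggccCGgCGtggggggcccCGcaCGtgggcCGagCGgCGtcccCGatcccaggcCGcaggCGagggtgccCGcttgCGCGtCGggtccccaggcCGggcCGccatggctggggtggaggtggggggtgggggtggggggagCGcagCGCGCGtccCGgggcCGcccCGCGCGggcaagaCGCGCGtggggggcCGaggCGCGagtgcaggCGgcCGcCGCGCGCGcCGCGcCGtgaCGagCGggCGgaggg
The Casd1 promoter held 23 CpG, more than 78.5% of the 32851 RefSeq promoters, and the Ppp1r9a promoter held 48, more than 98.8%. The Casd1 promoter also held 1 copy of TGCCGC, 130 bp before its start, shown here with the motif in capitals.
Casd1 motif copy (GRCm38.p6 chr6:4600769-4600798, + strand): gtcgccgcccgcTGCCGCcagtgacccggt
Of all RefSeq promoters 11.6% held the motif, and the Ppp1r9a promoter held none. Each gene has 1 other entry in the table. The entry at chr6:4623661-4623960 for Casd1 held 5 CpG, more than 38.0% of promoters, and that at chr6:4902725-4903024 for Ppp1r9a held 10, more than 56.5%. Neither held the motif or had a peak in any mm10 list.

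Over the whole locus, 622 kb with flanks, the authors' replicated mm10 list held 32 peaks, of which 21 lay in member bodies and 11 in flanks. Replicate 1 alone had 47 peaks there, replicate 2 had 56, and the list pooled over both had 59. All 4 members had at least 1 replicated peak in the gene body, where 30.8% of the 21887 protein-coding genes did. This count reads against gene length: of protein-coding genes of 0.5 to 2 times each member's length, the share with a peak was 40.9% for Casd1, 56.4% for Sgce, 19.5% for Peg10 and 89.4% for Ppp1r9a. Ppp1r9a, at 263 kb, was therefore of a size at which a peak was common, while Peg10, at 13.2 kb, was not.

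The covered share of the body set Peg10 apart more than the count did. Peaks covered 30.9% of the Peg10 body in replicate 1, 42.6% in replicate 2 and 36.4% in the replicated list, and 99.4% of 13962 protein-coding genes with a length of 10 kb or more were covered less. Casd1 was covered over 2.43% and 4.61% in replicates 1 and 2 (3.97% in the replicated list), Sgce over 3.50% and 6.30% (5.03%), and Ppp1r9a over 5.05% and 5.83% (5.94%). Their covered shares exceeded those of 84.3%, 87.6% and 89.6% of the same genes. In both replicates the covered share of Peg10 lay above those of the other 3 members with no overlap. Among protein-coding genes of 0.5 to 2 times the length of Peg10, 98.9% were covered less. Peg10 is also the shortest member, and in covered length the order differed. The replicated list covered 15599 bp of Ppp1r9a, 4807 bp of Peg10, 3667 bp of Sgce and 1685 bp of Casd1. The locus as a whole was covered over 4.98% of its length in the replicated list, against 3.85% of chromosome 6, and in the replicates over 4.01% and 5.45%, against 2.92% and 4.14%.

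**Figure D1:**
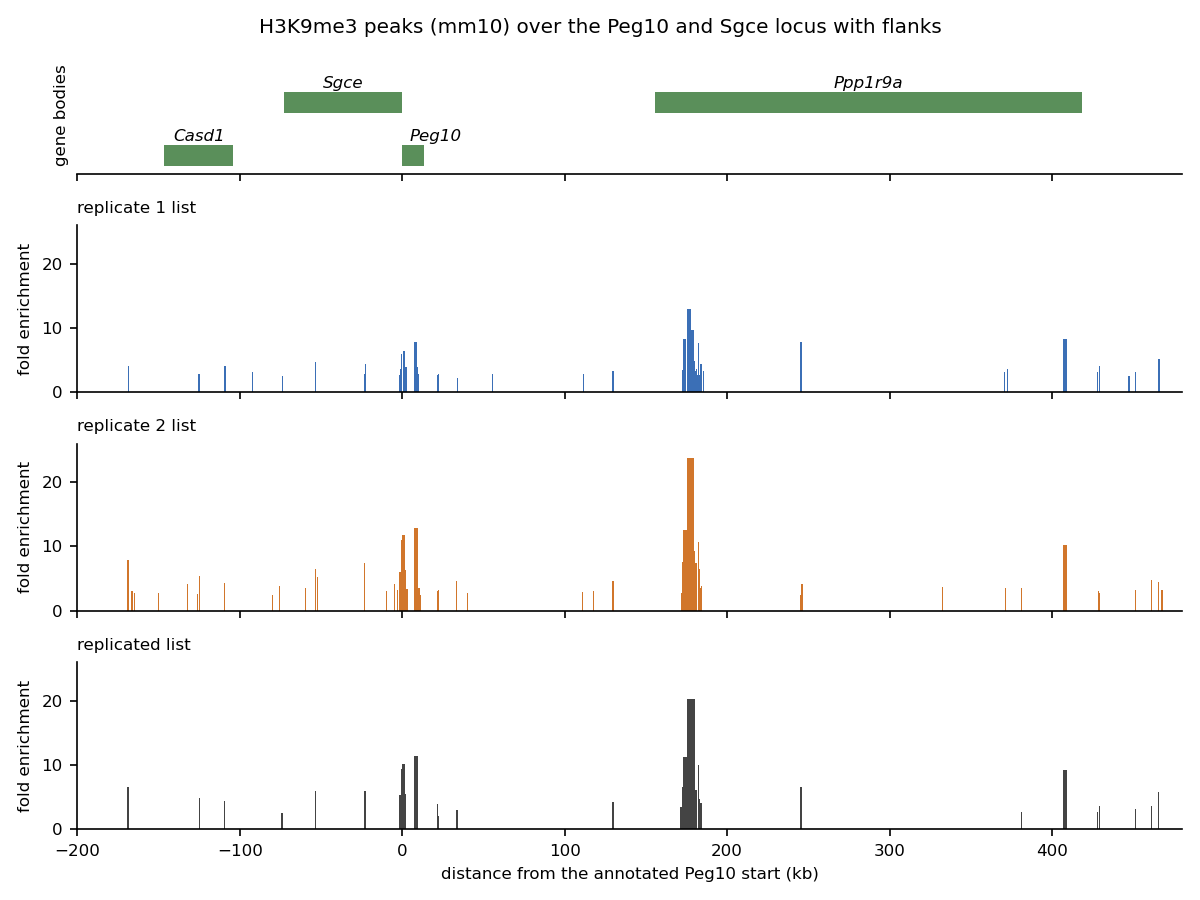
Peaks of 3 mm10 lists over the Peg10 and Sgce locus, with distance from the Peg10 start in kb on the horizontal axis, the authors' fold enrichment on the vertical axis, and the member gene bodies above. Peaks narrower than a thin line are drawn at a minimum width. Peaks of fold 10 or more in the replicated list sit at the start and in the body of Peg10 and in the first part of Ppp1r9a, where the highest reaches 20.3.

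Fold enrichment is the authors' value for a peak, used here only to describe peaks within these lists. The 32 replicated peaks ranged from 2.08 to 20.3, with a median of 5.03 against 4.20 over the whole replicated list. The 5 peaks at 10 or more were 2 in Peg10 and 3 in the first part of Ppp1r9a. Both replicates overlapped 26 of the 32 peaks. Replicate 2 had the higher fold at 22 of the 26, with a median ratio of replicate 2 to replicate 1 of 1.56. Over all 97282 such peaks of the list replicate 2 was higher at 80.2%, with a median ratio of 1.33, so the order of the replicates at the locus is also that of the list as a whole. Of the 6 other peaks, 3 had an overlapping peak in replicate 2 alone, 2 in replicate 1 alone, and 1 in neither list.

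**Figure D2:**
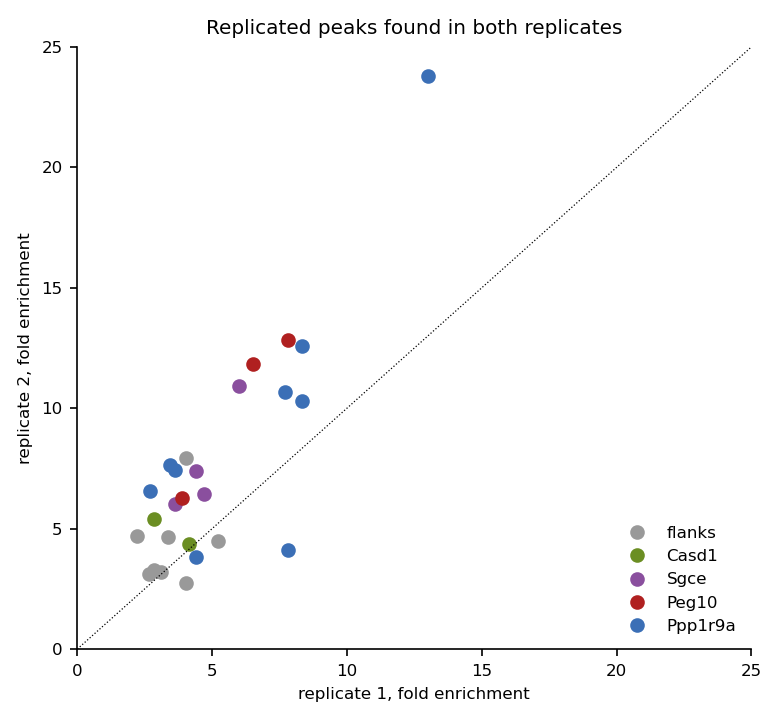
Fold enrichment in replicate 1 (horizontal) and replicate 2 (vertical) of the 26 replicated mm10 peaks that both replicates overlapped, coloured by the gene body they lie in. The dotted line marks equal values, 22 peaks lie above it, and the Ppp1r9a peak at 7.80 in replicate 1 and 4.10 in replicate 2 lies furthest below it.

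The start shared by Sgce and Peg10 carried a block of 4 replicated peaks, from 1.84 kb before to 2.29 kb past the Peg10 start (mm10 chr6:4745469-4749596). On the Sgce side, the peak at chr6:4746465-4747161 had a fold of 5.98 in replicate 1, 10.9 in replicate 2 and 9.30 in the replicated list. On the Peg10 side, the peak at chr6:4747390-4749014 had 6.5, 11.8 and 10.2, with a −log10 p of 47.6 in the replicated list. The block thus reached into both genes with similar folds, and replicate 2 was the higher on each side. The outer peaks were weaker: 3.64 and 6.01 in replicates 1 and 2 at the Sgce end, and 3.90 and 6.29 at the Peg10 end. Replicate 1 split the block into 6 peaks that covered 63.4% of the replicated block, and replicate 2 into 4 peaks that covered 90.4%.

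The 5′ ends of the RefSeq entries of both genes, taken here as their starts, lay between peaks. GENCODE M1 lists 8 transcript starts for Sgce in mm9, and these were not placed against the mm10 peaks. The starts of Sgce (minus strand) and Peg10 (plus strand) are 102 bp apart, and in all 4 mm10 lists both fell into a gap between the peaks on each side. The gap was 488 bp wide in replicate 1, 159 bp in replicate 2 and 228 bp in the pooled and the replicated list. In replicate 2 it left 12 bp beside the Sgce start and 46 bp beside the Peg10 start. Of 17 other imprinted genes listed for comparison, 14 had entries in the RefSeq promoter table with 24 starts in all. Of these starts 13, from 11 genes, lay inside a replicated peak, 2 lay within 1 kb of one and 9 had none within 1 kb. Without read coverage, a gap between narrow peaks cannot be told apart from a shallow dip in a continuous signal.

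In the wide mm9 regions the gap was bridged. Replicate 1 had a region of 6.2 kb over both starts, chr6:4694001-4700200, with a fold of 3.13, and replicate 2 a region of 4.6 kb, chr6:4695401-4700000, with 6.64. The mean was 4.88 ± 2.48 (SD, n = 2), and the third mm9 list, for which the sources do not state what it combines, gave 4.23. The values are the same for Sgce and Peg10, since 1 region covered both promoters. By this mean they ranked at 369 of the 1239 protein-coding genes with a region of both replicates at a promoter, above 70.1% of them. The ratio of replicate 2 to replicate 1, 2.12, was large for the lists: 2.18% of the 1239 genes had a ratio at or above it, the median was 1.31, and replicate 2 was higher at 89.8%. The lower fold, that of replicate 1, belongs to the wider region, and the part of region width in this ratio was not tested.

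Casd1 and Ppp1r9a had no mm9 region at any promoter in any of the 3 lists. With Peg10 and Sgce 2 of the 4 members were marked in both replicates, where 5.54% of 22367 protein-coding genes were, and the 2 share a single region. Requiring a fold of at least 4 in both replicates left 0 of the 4, since replicate 1 had 3.13 there. Sequence was read in a window of 1 kb on each side of the gene's 5′ end. CpG density there did not separate marked from unmarked members. It was 64.0 CpG per kb at Casd1, 60 at Sgce, 64.0 at Peg10 and 66.0 at Ppp1r9a. All 4 lay above 85.6% or more of the 22352 protein-coding 5′ ends, whose median was 30.5. GC content was lower at Sgce and Peg10, 56.5% at each, than at Casd1 (61.5%) and Ppp1r9a (61.1%). The ratio of observed to expected CpG was higher, 0.754 at Sgce and 0.804 at Peg10 against 0.676 at Casd1 and 0.708 at Ppp1r9a. Whether these differences bear on the mark was not tested. The TGCCGC motif occurred 3 times in that window at Casd1, 2 times at Sgce and at Peg10, in windows that overlap, and not at Ppp1r9a, where 43.4% of all such windows held it.

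Peg10 carried its strongest peak away from its start, over its coding sequence. In mm10 the peak spanned 2744 bp from 7.0 to 9.74 kb past the start (chr6:4754301-4757044), with a fold of 7.80 in replicate 1, 12.8 in replicate 2 and 11.4 in the replicated list, and a −log10 p of 56.5. In mm10 both replicates had here their highest fold within Peg10. The mm9 regions at the same distance had folds of 5.03 and 5.66, a mean of 5.34 ± 0.451 (SD, n = 2), so that the replicates lay closer together than at the start. In mm9 the order of both parts differed between the replicates: replicate 1 was higher over the coding part, 5.03 against 3.13, and replicate 2 over the start, 6.64 against 5.66.

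The stretch covered in both mm9 lists, chr6:4704401-4707000, consisted of coding sequence almost throughout, 99.9% of its 2600 bp. The 2 remaining bases are those between the coding parts of Peg10 as annotated, 1110 and 1905 bp long. Peg10 mRNA is known for a programmed −1 frameshift, by which the ribosome slips on a heptamer, GGGAAAC, and joins both reading frames as in a retrovirus. The heptamer was found at mm9 chr6:4705327-4705333, inside the marked stretch, and spans the annotated break between the coding parts. It is shown in capitals with 30 bases on each side, + strand.
Peg10 frameshift site (mm9 chr6:4705297-4705363): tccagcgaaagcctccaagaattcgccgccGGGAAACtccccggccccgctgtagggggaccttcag
Of the 3015 coding bp, 92.1% were covered in replicate 1, 94.0% in replicate 2 and 86.2% in both. Of the 3277 bp of 3′ UTR, 0% was covered in replicate 1 and 23.3% in replicate 2. The regions of the single replicates were wider than the stretch they share. That of replicate 1 began before the coding sequence, at chr6:4703601, and 81.7% of it was coding, while that of replicate 2 reached 763 bp into the 3′ UTR and 78.8% of it was coding. Together with the region over the start, 48.1% of the Peg10 intron was covered in replicate 1 and 37% in replicate 2. Region boundaries in mm9 fall on steps of 200 bp, which limits how exactly the ends can be placed.

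This stretch and the one over the starts were unlike most H3K9me3 stretches in sequence. They held 43.0 CpG per kb over the starts and 29.6 over the coding part. This was more than 99.97% and 99.4% of the 42197 stretches covered in both replicates, whose median was 8.96. Those stretches were not matched for lying at promoters or in exons. Within 1 kb of its start, Peg10 lay above 88.3% of protein-coding 5′ ends in CpG density. In 1 kb windows CpG density peaked at 84 per kb in the first kb of Peg10, fell to 0 between 3 and 4 kb and rose again to 38 per kb between 7 and 8 kb. Both replicates covered the 3 windows from 1 kb before to 2 kb past the start completely, and neither covered any of those between 3 and 6 kb. Neither stretch was made of abundant repeats: 4.11% and 0.808% of their bases were the first base of an abundant 16-mer, one with 50 or more copies in the mm9 genome.

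**Figure D3:**
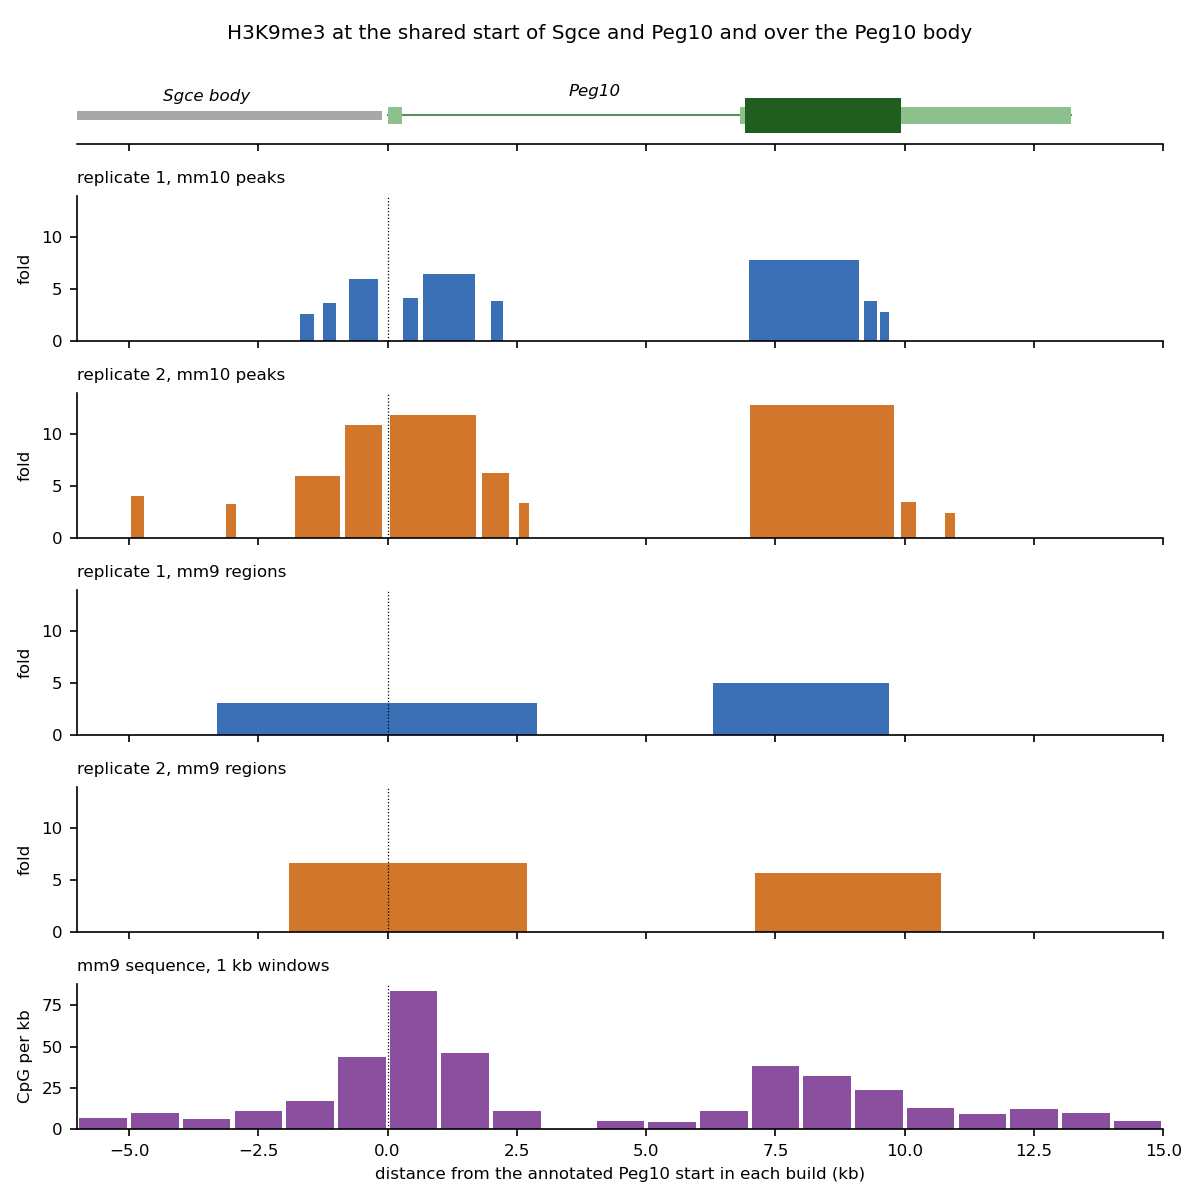
The start shared by Sgce and Peg10 and the body of Peg10, by distance from the Peg10 start in kb. The gene model shows coding sequence in dark green and other exon sequence in light green, the 4 middle panels show fold enrichment of each replicate in mm10 and mm9, and the lowest shows CpG per kb of mm9. The dotted line at the Peg10 start falls between peaks in mm10 and inside a region in mm9, and CpG density is high under both marked parts.

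Elsewhere in Sgce, 2 further replicated peaks lay in the body. The peak 53.8 kb before the Peg10 start (chr6:4693539-4694488) had a fold of 4.69 in replicate 1 and 6.43 in replicate 2, and that at 23.7 kb (chr6:4723653-4724747) had 4.41 and 7.38. In mm9 the first was found in both replicates, with 3.00 and 3.25, and held 163 bp of Sgce exon, while the second had a region in replicate 2 only, with 3.47. Casd1 had 2 replicated mm10 peaks, at chr6:4622029-4622827 with 2.86 and 5.4 and at chr6:4637551-4638436 with 4.16 and 4.37. In mm9 replicate 1 had no region in Casd1 and replicate 2 had 1, with a fold of 2.29. In the mm10 lists Casd1 was the member with the lowest covered share and the lowest strongest fold, 4.8 in the replicated list. In mm9 the order of covered share did not hold in replicate 2, where regions covered 4.70% of Casd1 and 3.58% of Ppp1r9a. Nor did it hold in the third mm9 list, with 6.58% and 3.50%. The order of strongest fold did hold in replicate 2, with 2.29 in Casd1 and 3.88 in Ppp1r9a.

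Ppp1r9a held the highest fold of the locus. A block of 9 replicated peaks ran from 15.7 to 28.9 kb past its RefSeq start (mm10 chr6:4918522-4931815), 13.3 kb long and covered over 91.5%. The central peak, 5016 bp at chr6:4922422-4927437, had a fold of 13 in replicate 1, 23.8 in replicate 2 and 20.3 in the replicated list, with a −log10 p of 131. Beside it, the 2392 bp peak at chr6:4919918-4922309 had 8.32, 12.6 and 11.3, and the 560 bp peak at chr6:4929109-4929668 had 7.70, 10.7 and 10.1. Replicate 1 had 13 peaks in this block and replicate 2 had 11. In each replicate the central peak exceeded every other peak of the locus.

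This block had no counterpart in the mm9 lists. In all 3 of them the first region past the Ppp1r9a start lay 89.4 kb away, and the nearest before it ended 122 kb upstream. In mm9 the sequence from 15 to 29 kb past the GENCODE start had no unknown bases and 9.71 CpG per kb, and 10.6% of its bases were the first of an abundant 16-mer. It lies in the intron between exons 3 and 4, which end and begin at 3.84 and 142.9 kb. The converse was seen further along the gene: an mm9 region of both replicates from 162 to 165 kb, with folds of 2.43 and 2.56, had no mm10 peak at the same distance in any of the 4 lists. There 91.5% of the bases were the first of an abundant 16-mer. The RefSeq and GENCODE starts need not be the same base, and the builds were not converted into each other. Ppp1r9a is 262.8 kb long in mm10 RefSeq and 262.7 kb in mm9 GENCODE. What sets the lists apart here was not tested.

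At 2 places in Ppp1r9a both builds carried the mark. At 89.5 to 90.1 kb, an mm10 peak (chr6:4992349-4992972) had 7.80 in replicate 1 and 4.10 in replicate 2, and the mm9 region at 89.4 kb had 4.76 and 3.40, so that replicate 1 was the higher in both builds. At 251 to 254 kb, near the 3′ end of the gene, the mm10 peak (chr6:5154013-5156481) had 8.32 and 10.3, and the mm9 region had 3.21 and 3.88. That region took in 343 bp of exon, and exons 18 to 20 begin within it. A last replicated peak, at chr6:5128042-5128388, was overlapped by replicate 2 only, with 3.56.

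**Figure D4:**
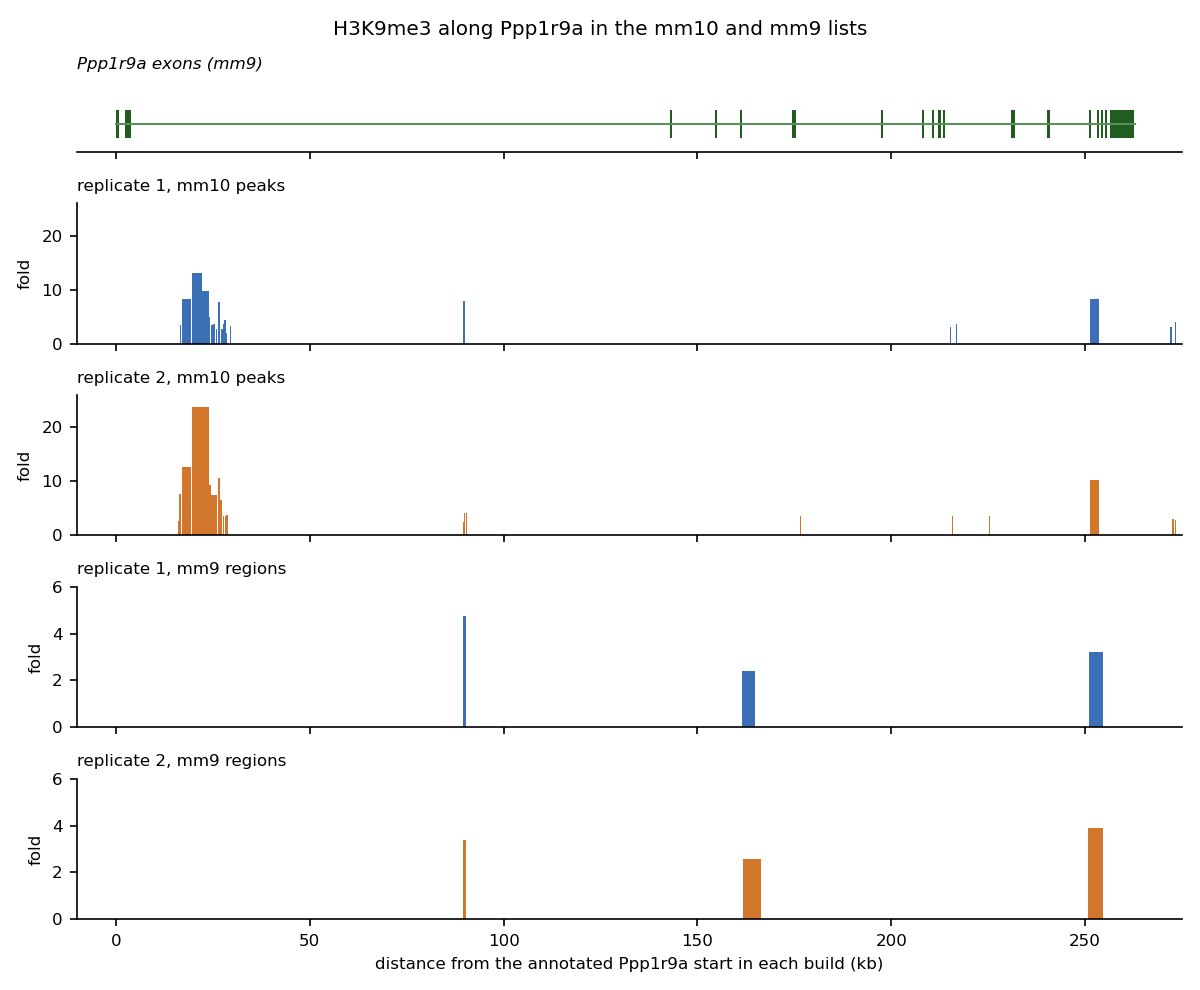
Fold enrichment along Ppp1r9a, by distance from the annotated start of the gene in kb, for each replicate in mm10 and mm9, with mm9 exons above. The vertical axes differ between builds. The block at 15.7 to 28.9 kb appears in mm10 only, the region at 162 to 165 kb in mm9 only, and the marks near 90 kb and from 251 to 254 kb in both.

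In the flanks, 11 replicated peaks had folds from 2.08 to 6.6 in the replicated list. The highest lay 169 kb before the Peg10 start (chr6:4578123-4579014), with 4.02 in replicate 1 and 7.93 in replicate 2. Of the 11, 3 lay inside another gene, 1 in Gm36478 and 2 in Pon1. A further list of 15 neighbours was taken on both sides of the locus. Of these, 5 had a replicated peak in the body, where 30.8% of protein-coding genes did. Calcr, the calcitonin receptor, had 7 peaks over 11.9% of its body with a strongest fold of 13.7, and Dync1i1, a dynein intermediate chain, had 10 peaks with a strongest fold of 13.9. Tfpi2 had 1 peak, Pon1 2 and Slc25a13 2, none above 4.16. None of the other 10, Gngt1, Gng11, Bet1, Col1a2, Pon2, Pon3, Asb4, Pdk4, Dlx5 and Dlx6, had one. At promoters in mm9, 0 of the 15 neighbours had a region in both replicates, where 5.54% of protein-coding genes did. Pon3 had one in replicate 1 only, with a fold of 3.42. Of the 4 members and 15 neighbours, Peg10 and Sgce were those marked in both replicates within 1 kb of a start. At so low a share over all genes, 0 of 15 does not show that the neighbours were less marked than other genes. With promoters of 5 kb on each side, 3 neighbours had a region in both replicates.

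Among other imprinted genes the rank of the Peg10 and Sgce promoter differed between the replicates. All 17 of the comparison list were marked at a promoter in both mm9 replicates, a list put together with earlier results of these data known, so this count is no independent evidence. In mm10, Gnas and Inpp5f had no replicated peak within 1 kb of any RefSeq start. Each fold is the highest over all GENCODE starts of a gene, and their number was not matched. It was 1 at Peg10, Nap1l5, Impact, Mcts2 and Zrsr1, 8 at Sgce, 12 at Plagl1 and 16 at Gnas. In replicate 1 the Peg10 value of 3.13 was below all 17, the closest being Zrsr1 at 3.17, while in replicate 2 the value of 6.64 was below 6 of them and above the others. The mean fold was higher than at Peg10 for 8 of them and lower for 9. Nnat, with 10.3 in replicate 1 and 12.5 in replicate 2, was the 1 gene with both replicates above the range of Peg10, and the ranges of the other 16 overlapped it. H19 had 6.39 and 9.0, Plagl1 5.54 and 8.18, and Mest 5.51 and 7.94. Gnas and Nespas shared a region with 5.25 and 7.40. The nearest means were those of Nap1l5 (4.12 and 6.53) and Snrpn (6.54 and 3.92) above, and Meg3 (3.98 and 5.53) below. Mcts2, Peg3, Airn, Inpp5f, Zrsr1, Grb10, Igf2r and Impact had means from 4.37 down to 3.59. Except at Snrpn, replicate 2 was the higher at each of these promoters.

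**Figure D5:**
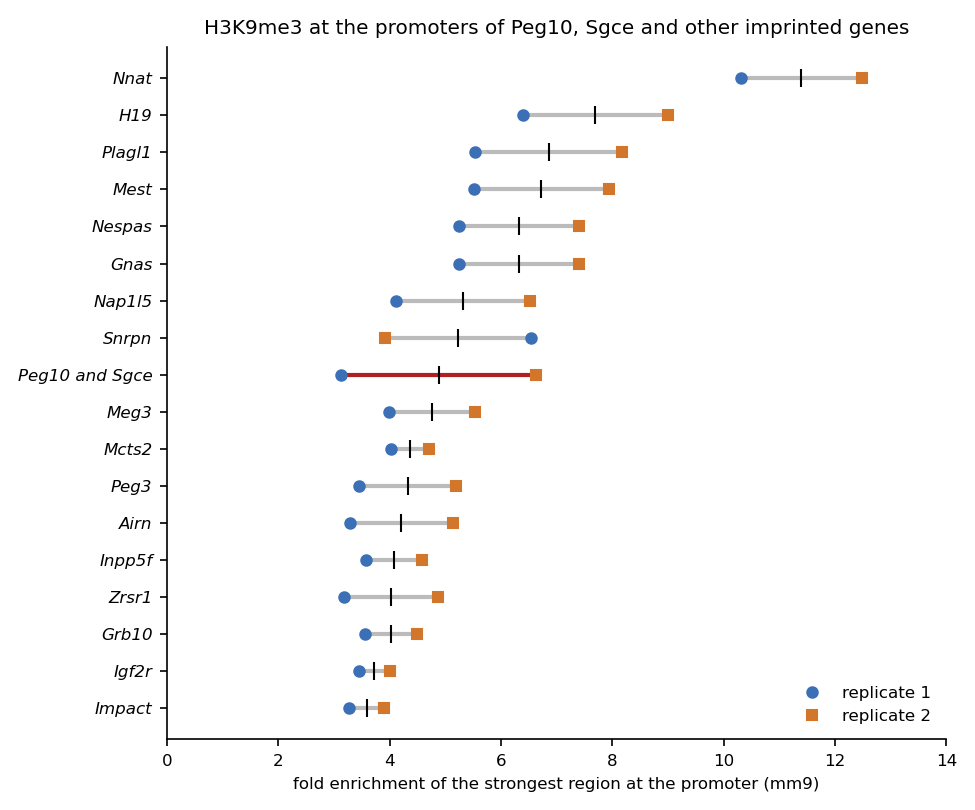
Fold enrichment of the strongest mm9 region at the promoter of each imprinted gene, for replicate 1 (circles) and replicate 2 (squares), with the mean as a black tick, ordered by the mean. The red line joins the values of the region shared by Peg10 and Sgce, 3.13 and 6.64, which spans the range of most other genes.

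The protein-coding genes most like Peg10 in the pair of promoter folds, by distance of the log2 values over the 2 replicates, were Tmc2 (3.16 and 6.31, distance 0.07), Tnni1 (2.95 and 6.46, 0.09), Tc2n (3.20 and 6.06, 0.13), Gm5134 (2.95 and 6.15, 0.14) and Rg9mtd1 (3.55 and 6.94, 0.19). Of 5 stem cell genes (Pou5f1, Nanog, Sox2, Esrrb, Zfp42) and 6 differentiation genes (Gata4, Gata6, T, Sox17, Pax6, Cdx2), 0 had a region of both replicates at a promoter, where 5.54% of protein-coding genes did, and Esrrb had one in replicate 2, with a fold of 3.02, and in the third list, with 3.16, but not in replicate 1. With so low a share these counts do not test the labelled cell type, and peaks do not show which of these genes were expressed.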

How the data were processed

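H3K9me3 ChIP-seq peak lists of 2 replicates of 1 group were used. Per the labels, assemblies were mm9 and mm10. The aligner and the peak caller were not given in the sources used here. The authors deposited for each peak a fold enrichment, which is a ratio on a linear scale. In the 4 mm10 lists they deposited −log10 p and −log10 q, and in the 3 mm9 lists a linear p-value and q-value. The file lists deposited with the samples trace the pooled mm10 list to both alignments, and the replicated list to this and the list of each replicate. They do not state what the third mm9 list combines. Depth is unknown.

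Overlaps of at least 1 bp, covered shares, peaks joined into blocks across gaps of up to 500 bp, and sequence counts were computed with Python 3.11.15, numpy 2.4.6, pysam 0.24.0 and samtools 1.23.1, and figures were drawn with matplotlib 3.10.9. Interval functions were tested on simulated intervals. Gene positions in mm10 came from RefSeq GRCm38.p6, and transcripts in mm9 from GENCODE M1. Distances were taken in each build, and no coordinates were converted. Repeats were judged by 16-mers present at least 50 times in mm9, counting both strands.

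Genes named were the 4 members, neighbours with a peak or region, the listed imprinted genes and the 5 protein-coding genes nearest to Peg10 in promoter fold. Members and lists were chosen with earlier results of these data known. Alternatives were other lists, stricter peaks, other windows and each replicate alone.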

Additional observations from a re-analysis of the deposited data

How the results depend on the processing

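Of 95 alternative values over 16 results, 83 stayed close to the main value and 12 moved. Close meant within 1.5 times for counts and within the SD of the replicates for shares and folds. For the mm9 promoter folds the main value is the mean of both replicates, so each replicate alone always lies within this SD. These alternatives could not move and show no stability. Peg10 and Sgce share 1 mm9 region, so both entered these numbers with the same values. Wider promoters met that same region and left the mean fold at 4.88. In mm10 each replicated peak of the locus is also a pooled peak with the same ends and fold. The pooled list could therefore not lower the strongest folds, which were identical, or the count of members with a peak. Such alternatives add to the number that stayed close without testing stability. The 4 of 4 members with a peak in the body remained under every alternative, and the share of the Peg10 body covered ranged from 30.9% to 42.6% with a replicate left out. The number of peaks in the locus moved from 32 to 59 in the pooled list and to 21 at a fold of at least 4, and was 47 to 56 in the lists of 1 replicate. The strongest fold in Peg10 was 7.80 without replicate 2 and 12.8 without replicate 1, against 11.4. Requiring a fold of at least 4 in both replicates left 0 of 4 members marked at a promoter in mm9, since replicate 1 had 3.13 there, and the other alternatives left 2, with a mean fold between 3.13 and 6.64 when a replicate was left out. Neighbours with a body peak numbered 6 to 8 in the lists of 1 replicate and 3 at a fold of at least 4, against 5. Neighbours with a promoter region numbered 0 to 1 with a replicate left out, 1 with promoters of 2.5 kb either side and 3 with 5 kb, against 0. No paired analysis was possible because there was 1 group. Peak lists carry no depth, so an absent peak does not show an absent mark, and at repeats peaks depend on how multi-mapping reads were treated, which was not given in the sources used here.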
